A study of Mus musculus with 2 samples.

Results

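The genes described here are the 4 mouse Notch receptors, the 3 Delta-like and 2 Jagged ligands, and Mib1, a ubiquitin ligase that ligand-presenting cells need. The rule that picks them uses gene names and no measured value, although the family was chosen with earlier results of these data known. All 10 identifiers were found in both gene tables, among 43346 annotated genes. The RNA came from hindbrains of healthy B6NCrl mouse embryos at 10.5 days, both sexes combined, with no transgene or treatment named in the labels. There was 1 group of 2 biological replicates, a pool of 69 embryos (replicate 1) and a pool of 51 embryos (replicate 2), listed under a single donor ID. Each library was built from 10 ng of RNA longer than 200 nucleotides, to which spike-in RNAs had been added. Levels are in TPM, which is abundance per transcript length scaled to a fixed total per library, and a mean is given ± SD (n = 2). Both values describe these pools only, because no condition was compared with another and no test was possible.

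Notch signalling passes between cells that touch. A Delta or Jagged ligand on one cell pulls on a Notch receptor on its neighbour, the receptor is cut by Adam proteases and gamma-secretase, and the freed intracellular part joins Rbpj in the nucleus and switches on Hes and Hey repressors. In the neural tube, cells that start to become neurons make Delta ligands under proneural factors, and their neighbours respond by remaining progenitors. Vessels use the same pathway, with Notch4 and Dll4 among its genes there.

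Markers of neural tissue were present in both libraries; markers of the hindbrain as a region were not examined. All 7 neural progenitor markers and all 8 markers of postmitotic neurons reached 1 TPM in each library, and so did all 8 endothelial markers. Annotated genes received 38170078 and 36382223 rounded expected counts in replicates 1 and 2. A count on a transcript of 1 kb effective length was worth 0.037 TPM in replicate 1 and 0.0413 in replicate 2.

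All 10 genes were detected, meaning that both libraries held 1 TPM or more, as were 58.8% of the 21474 annotated protein-coding genes. Their mean levels ran from 2.52 TPM (Jag2) to 64.7 TPM (Dll1), and their expected counts from 230 to 8837. The detected protein-coding genes had a median of 19.7 TPM. Dll1, Dll3, Notch1, Jag1 and Notch3 lay above that median, and Mib1, Notch2, Notch4, Dll4 and Jag2 lay below it.

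The Delta ligands of the neural tube led the family. Dll1, which activates Notch on neighbouring cells and is made by cells entering neurogenesis, was at 72.4 TPM in replicate 1 and 56.9 in replicate 2 (64.7 ± 11.0; chromosome 17, 15367354 to 15376872, minus strand, mm10). Dll3, a divergent Delta protein that acts inside the cell that makes it and does not activate Notch in neighbours, was at 70.9 TPM in replicate 1 and 42.3 in replicate 2 (56.6 ± 20.2; chromosome 7, 28293553 to 28302238, minus strand). The ranges of these 2 genes overlapped, so their order was not resolved: Dll3 was 0.978 times Dll1 in replicate 1 and 0.743 times in replicate 2. Dll1 lay above 79.9% and Dll3 above 76.9% of the detected protein-coding genes.

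Jag1, a ligand of the Serrate type that is used in neural tube domains, vessels and ear, was at 16.9 TPM in replicate 1 and 25.7 in replicate 2 (21.3 ± 6.22; chromosome 2, 137081456 to 137116644, minus strand). Jag1 and Dll4 were higher in replicate 2 by TPM, while Dll1, Dll3 and Jag2 were higher in replicate 1. Dll4, the ligand of arterial and sprouting endothelium that is also made by some spinal cord and hindbrain interneuron precursors, was at 3.79 TPM in replicate 1 and 4.92 in replicate 2 (4.36 ± 0.799; chromosome 2, 119325784 to 119335962, plus strand). Jag2 was the lowest of all 10 genes, at 2.63 TPM in replicate 1 and 2.40 in replicate 2 (2.52 ± 0.163; chromosome 12, 112907819 to 112929776, minus strand). Its 281 and 230 counts have exact Poisson 95% intervals of 249 to 316 and 201 to 262, which cover counting error only. Jag2 lay above 8.35% of the detected protein-coding genes.

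The start regions of the 3 ligands that carried most of the ligand level, and of Hes5, the highest of the known targets, are shown because proneural factors bind E-boxes and Rbpj binds a core of TGGGAA. Each window runs from 250 bases before to 50 bases after a RefSeq start (GRCm38.p6) and is written 5′ to 3′ on the gene's strand. Capitals mark E-boxes (CANNTG) in the ligands and TGGGAA, or its reverse complement, in Hes5.
Dll1, chr17:15375774-15376073, minus strand: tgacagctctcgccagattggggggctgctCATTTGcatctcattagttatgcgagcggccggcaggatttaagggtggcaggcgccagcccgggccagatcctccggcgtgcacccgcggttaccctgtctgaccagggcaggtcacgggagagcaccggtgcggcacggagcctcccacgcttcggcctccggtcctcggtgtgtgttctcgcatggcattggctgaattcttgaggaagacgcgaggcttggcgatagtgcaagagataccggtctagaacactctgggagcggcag
Dll1, upstream start, chr17:15376883-15377182, minus strand: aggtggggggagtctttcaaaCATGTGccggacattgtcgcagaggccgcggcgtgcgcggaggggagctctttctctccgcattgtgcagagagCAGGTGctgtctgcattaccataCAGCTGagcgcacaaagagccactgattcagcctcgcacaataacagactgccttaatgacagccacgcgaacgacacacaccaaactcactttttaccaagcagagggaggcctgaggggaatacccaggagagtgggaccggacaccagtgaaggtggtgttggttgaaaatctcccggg
Dll3, chr7:28301736-28302035, minus strand: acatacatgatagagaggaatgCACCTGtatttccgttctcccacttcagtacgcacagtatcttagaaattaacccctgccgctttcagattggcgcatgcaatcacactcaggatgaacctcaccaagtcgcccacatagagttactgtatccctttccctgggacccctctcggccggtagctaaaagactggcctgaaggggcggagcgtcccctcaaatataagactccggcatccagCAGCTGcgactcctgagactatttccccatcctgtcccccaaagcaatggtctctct
Jag1, chr2:137116471-137116770, minus strand: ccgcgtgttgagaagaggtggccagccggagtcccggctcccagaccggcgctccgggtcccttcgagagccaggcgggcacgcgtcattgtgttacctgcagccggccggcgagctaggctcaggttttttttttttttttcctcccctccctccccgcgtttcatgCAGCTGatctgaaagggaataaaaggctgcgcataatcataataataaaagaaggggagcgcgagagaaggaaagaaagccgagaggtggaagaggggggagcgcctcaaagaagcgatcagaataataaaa
Hes5, chr4:154960673-154960972, plus strand: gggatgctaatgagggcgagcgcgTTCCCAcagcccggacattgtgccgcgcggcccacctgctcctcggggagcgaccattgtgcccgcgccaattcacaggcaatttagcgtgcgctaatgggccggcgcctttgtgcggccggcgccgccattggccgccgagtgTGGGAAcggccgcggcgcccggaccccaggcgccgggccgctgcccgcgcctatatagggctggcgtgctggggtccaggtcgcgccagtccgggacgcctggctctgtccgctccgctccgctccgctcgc
The upstream Dll1 window, the Dll3 window and the Jag1 window each held 1 copy of CAGCTG. That form, which is a subset of CANNTG, occurred in 16.3% of all 32851 windows of the same length, and CANNTG in 72.3%. TGGGAA occurred on either strand in 25.6% of all windows, at 2 places in the Hes5 window, and in none of the 10 windows available for 9 of the genes described here. Dll4, Jag2, Notch1, Notch2 and Notch3 held no CANNTG in these windows, and Notch4 held 1. These are matches of letters in short windows, not measured binding. RefSeq starts can also differ from those of the transcripts counted here. The leading Dll3 transcript starts at 28302238, upstream of the Dll3 window and outside it. The leading Dll1 and Jag1 transcripts start at 15375976 and 137116644, inside the first Dll1 window and the Jag1 window.

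Among the receptors, Notch1 led in both pools. Notch1, the main receptor of neural progenitors, was at 37.1 TPM in replicate 1 and 33.0 in replicate 2 (35.1 ± 2.93; chromosome 2, 26457903 to 26516663, minus strand). Notch3, which is made by progenitors and by the mural cells around vessels, was at 20.5 TPM in replicate 1 and 19.3 in replicate 2 (19.9 ± 0.841; chromosome 17, 32120820 to 32166852, minus strand). Notch2, a receptor of progenitors and of roof plate and choroid plexus tissue, was at 12.1 TPM in replicate 1 and 15.1 in replicate 2 (13.6 ± 2.17; chromosome 3, 98013527 to 98150361, plus strand). The 3 ranges did not overlap, so Notch1, Notch3 and Notch2 kept this order in both libraries. Notch1 exceeded Notch2 by 3.08 times in replicate 1 and by 2.18 times in replicate 2.

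Notch4, a receptor of endothelial cells, was at 9.97 TPM in replicate 1 and 7.67 in replicate 2 (8.82 ± 1.63; chromosome 17, 34564268 to 34588503, plus strand). Most of that level, as the deposited quantification divided it, did not belong to the receptor's coding transcript. A transcript of 619 bases, Notch4-210, held 64.1% of the Notch4 TPM in replicate 1 and 58.5% in replicate 2, while the coding transcript of 6591 bases, Notch4-201, held 30.3% and 29.5%. By posterior mean TPM the share of Notch4-210 was 56.2% in replicate 1 and 48.0% in replicate 2. In expected counts the shares were turned round: Notch4-201 received 85.0% in each library, and Notch4-210 received 14.4% in replicate 1 and 13.5% in replicate 2. The annotation calls Notch4-210 a processed transcript, with 2 exons at the end of the gene (34587041 to 34587818), and 543 of its 619 bases lie in exons of Notch4-201. The remaining 76 bases are intronic for Notch4-201 and lead directly into exon 29 of 30. They are the annotated bases that set this short RNA apart from Notch4-201, and are shown in capitals in its first 120 bases, followed by the shared exon in lower case (GENCODE M21, GRCm38).
Notch4-210, chr17:34587041-34587160, plus strand: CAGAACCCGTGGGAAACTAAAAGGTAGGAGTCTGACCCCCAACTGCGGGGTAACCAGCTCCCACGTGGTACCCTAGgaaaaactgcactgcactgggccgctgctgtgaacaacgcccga
Taken by the coding transcript alone, Notch4 was at 3.02 TPM in replicate 1 and 2.26 in replicate 2 (2.64 ± 0.537), which placed it below Dll4, with a range that overlapped that of Jag2.

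**Figure D1:**
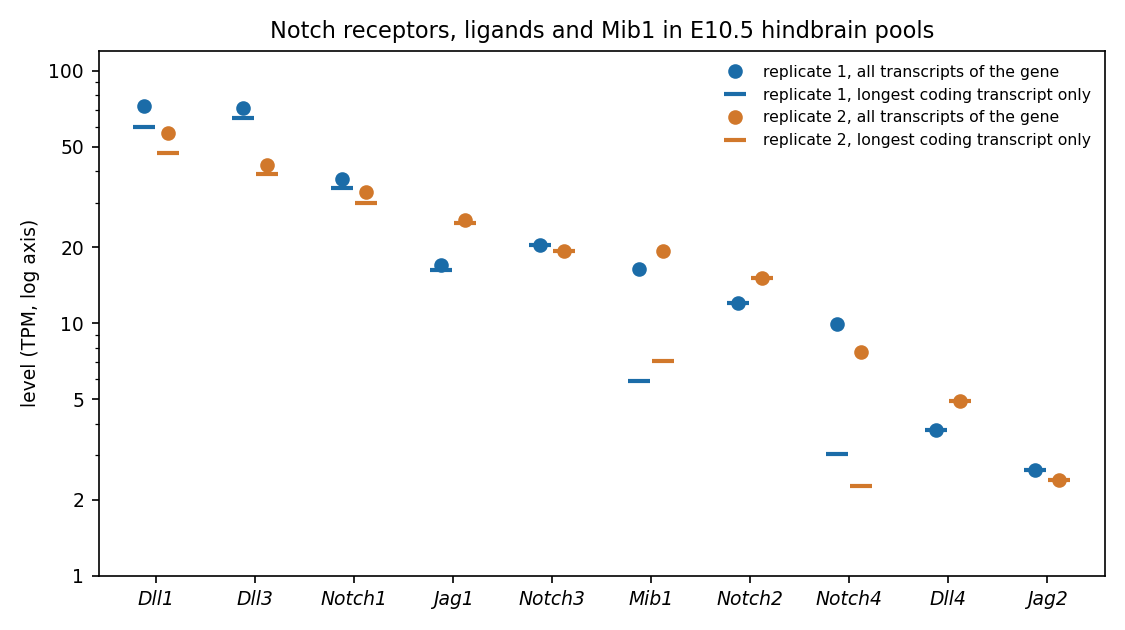
Level of each gene in TPM (log axis) in replicate 1 (blue) and replicate 2 (orange). Points count all transcripts of a gene and dashes only its longest coding transcript; the dash falls well below the point for Mib1 and Notch4, where the coding level of Notch4 was 3.02 and 2.26 TPM.

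The order of the 10 genes by gene level was resolved for 6 of 9 neighbouring pairs, in the sense that the ranges of the 2 libraries did not overlap. Dll1 and Dll3 overlapped, as did Jag1 and Notch3. Notch3 and Mib1 met at 19.3 TPM. By the longest coding transcript 6 of 9 pairs were again resolved, but Mib1 moved below Notch2, and Notch4 moved below Dll4 to overlap with Jag2.

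In summed TPM the ligands together outweighed the receptors. Summed over the 5 ligands the level was 166.7 TPM in replicate 1 and 132.3 in replicate 2, and summed over the 4 receptors it was 79.6 and 75.1 TPM. The ligand sum was thus 2.09 times the receptor sum in replicate 1 and 1.76 times in replicate 2 (log2 0.94 ± 0.18). It includes Dll3, which does not activate Notch in neighbours and held 42.5% of the ligand sum in replicate 1 and 32.0% in replicate 2. These sums are per length: in expected counts, which favour the longer receptor transcripts, the log2 of ligands over receptors was -0.43.

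The widest change of share between the pools was 5.01 percentage points among the receptors (Notch2) and 10.5 among the ligands (Dll3). Notch1 made up 46.6% of the receptor sum in replicate 1 and 43.9% in replicate 2, and Notch3 made up 25.7% in each. Notch2 made up 15.1% in replicate 1 and 20.1% in replicate 2, and Notch4 made up 12.5% and 10.2%. Dll1 also kept its share of the ligand sum, with 43.5% in replicate 1 and 43.0% in replicate 2. Dll3 and Jag1 accounted for the shift: Dll3 held 42.5% in replicate 1 and 32.0% in replicate 2, and Jag1 held 10.2% and 19.5%. The 3 Delta ligands summed to 7.52 times the 2 Jagged ligands in replicate 1 and to 3.70 times in replicate 2. Such ratios within a library do not depend on how the libraries are scaled to each other.

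**Figure D2:**
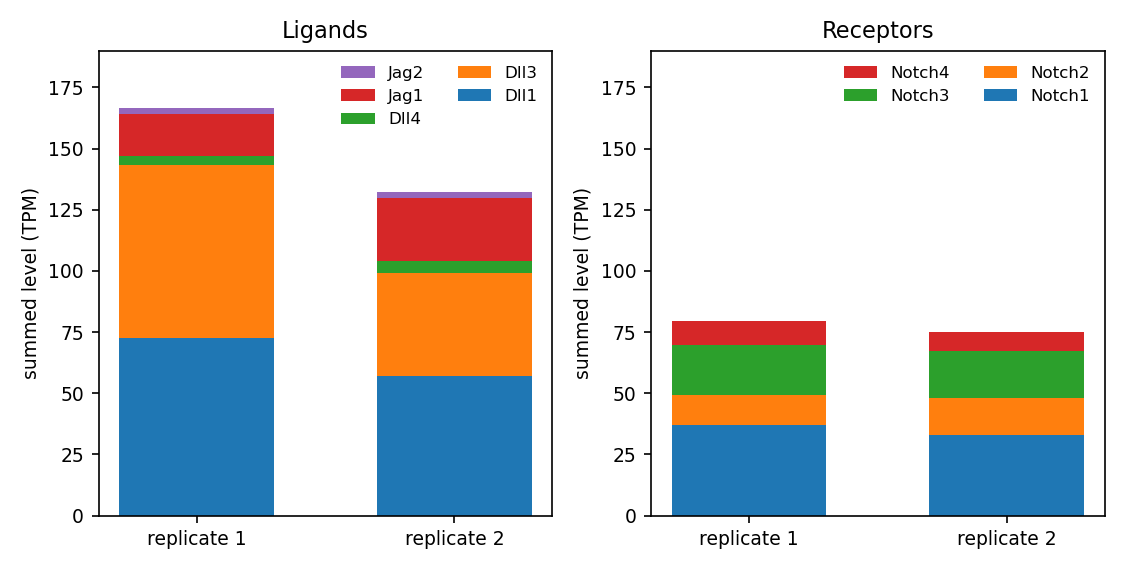
Summed TPM of the 5 ligands (left) and the 4 receptors (right) in each pool, with bars starting at 0 and coloured by gene. The receptor bars differ by under 5 TPM in height, with more Notch2 in replicate 2, while the ligand bar of replicate 1 has more Dll3 and that of replicate 2 has more Jag1.

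Mib1, the ligase that marks Delta and Jagged proteins for the uptake that pulls on Notch, was at 16.3 TPM in replicate 1 and 19.3 in replicate 2 (17.8 ± 2.10; chromosome 18, 10725548 to 10818704, plus strand). Its level too was split between a full and a short transcript, as the deposited quantification divided it. Mib1-204, of 2721 bases and 7 exons, held 62.1% of the Mib1 TPM in each library, and Mib1-201, of 10231 bases and 21 exons, held 36.1% in replicate 1 and 36.7% in replicate 2. In expected counts Mib1-201 led with 68.6% in replicate 1 and 69.1% in replicate 2. Mib1-204 begins within exon 16 of Mib1-201, at 10798365, and all 2721 of its bases lie in exons of that transcript. It thus has no bases of its own against Mib1-201, and read coverage along the gene was not examined. Both transcripts are annotated as coding, and coding transcripts held all of the Mib1 TPM. The long transcript alone was at 5.90 TPM in replicate 1 and 7.08 in replicate 2.

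The other members with several transcripts were led by the longest coding one. Across the 10 genes 44 transcripts were annotated and 24 received counts in both libraries; Notch2, Notch3 and Jag2 had 1 each. Notch1-201 held 92.2% of the Notch1 TPM in replicate 1 and 90.9% in replicate 2, and the intron-retaining Notch1-205, second by mean level, held 3.50% and 3.82%. In replicate 2 the processed transcript Notch1-207 stood above Notch1-205, with 4.88%, against 1.18% in replicate 1. Dll1-201 held 82.5% and 83.1%, followed by Dll1-204 at 10.2% and 11.0%. Dll1-204 is a retained-intron model of 751 bases whose 98 own bases are the last intron of Dll1-201, and it received 2.23% of Dll1 counts in replicate 1 and 2.38% in replicate 2. Dll3-201 held 91.9% in each library, and the intron-retaining Dll3-202 was at 3.81 TPM in replicate 1 and 1.27 in replicate 2. Jag1-201 held 95.5% and 96.5%, and Jag1-202 held 4.49% and 3.50%. Dll4-201 received all of the Dll4 counts, and Dll4-202 received none.

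**Figure D3:**
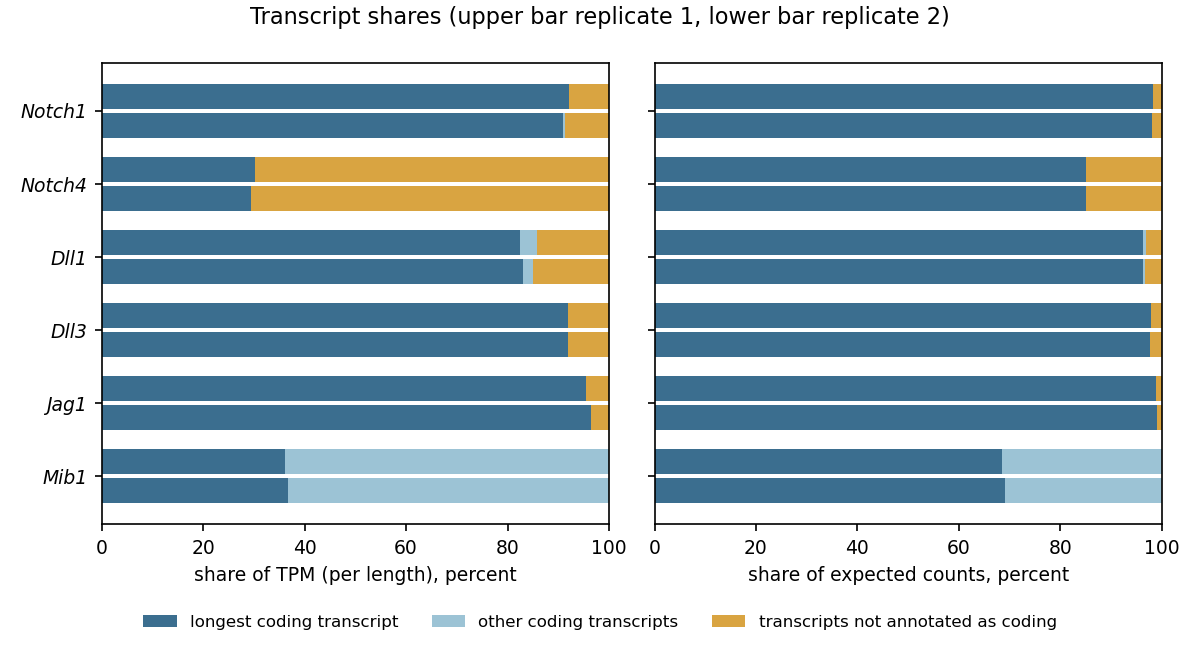
Share of TPM (left) and of expected counts (right), in percent, in the longest coding transcript, other coding transcripts and transcripts not annotated as coding, for the 6 genes with more than 1 transcript counted; the upper bar of each pair is replicate 1. Notch4 and Mib1 have under 40% of their TPM but over 60% of their counts in the longest coding transcript.

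Some reads of these genes could belong to genes on the other strand, since the sources used here do not say whether counting used strand. Dll1 shares 867 exon bases with A930024N18Rik, which received 41.1 and 16.9 counts in replicates 1 and 2, while Dll1 received 5846 and 4142. Notch1 shares 1068 exon bases with 0610009E02Rik, which received 142.8 and 126.8 counts, and 414 with Gm13568, which received 189.8 and 216.5. Notch3 shares 488 with Gm17276 and Dll4 shares 214 with Gm14207. Among these overlaps on the other strand the value of Dll4 is the most exposed, with 374 and 435 counts against 20.0 and 27.0 for Gm14207. On the same strand Notch2 shares 541 exon bases with Gm42820, which was not among the genes counted, so counting by strand could not separate them.

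The pools were then set against each other as the log2 of replicate 1 over replicate 2, from counts scaled by TMM (a trimmed mean over all genes). There is 1 library on each side, so no value here has a replicate check or a p-value, and the intervals cover counting error only. Dll3 was the 1 member at least 1.5-fold apart, higher in replicate 1 by 0.81 (exact binomial 95% interval 0.74 to 0.88). Of the 14385 genes compared, 9.07% were higher in replicate 1 by that fold or more, and 4.28% were higher in replicate 2. For the members, 1 of 10 is near the first share and 0 of 10 below the second, and 5.37% of all genes had a ratio above that of Dll3. In bulk tissue fewer cells of a type and less RNA per cell cannot be told apart.

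The 10 ratios spanned both directions. Dll1 was at 0.40 (0.35 to 0.46), Notch4 at 0.48 (0.30 to 0.66), Notch1 at 0.25 (0.21 to 0.30) and Notch3 at 0.15 (0.09 to 0.22). Jag1 lay at the other end, at -0.55 (-0.63 to -0.47), just inside the 1.5-fold limit of 0.58 on either side, and 5.1% of all genes had a lower ratio. By deposited TPM its ratio was -0.60, past that limit. Notch2 was at -0.26 (-0.33 to -0.20), Dll4 at -0.31 (-0.51 to -0.11) and Mib1 at -0.19 (-0.27 to -0.10). Jag2, at 0.20, had a counting interval that held 0 (-0.06 to 0.45). The median of the 10 was 0.17 and that of all genes compared -0.01. Scaling to the spike-ins instead moved the median over all genes by -0.80, the 10 ratios moved with it, Dll3 stood at 0.00, and 5 of the 10 changed sign.

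**Figure D4:**
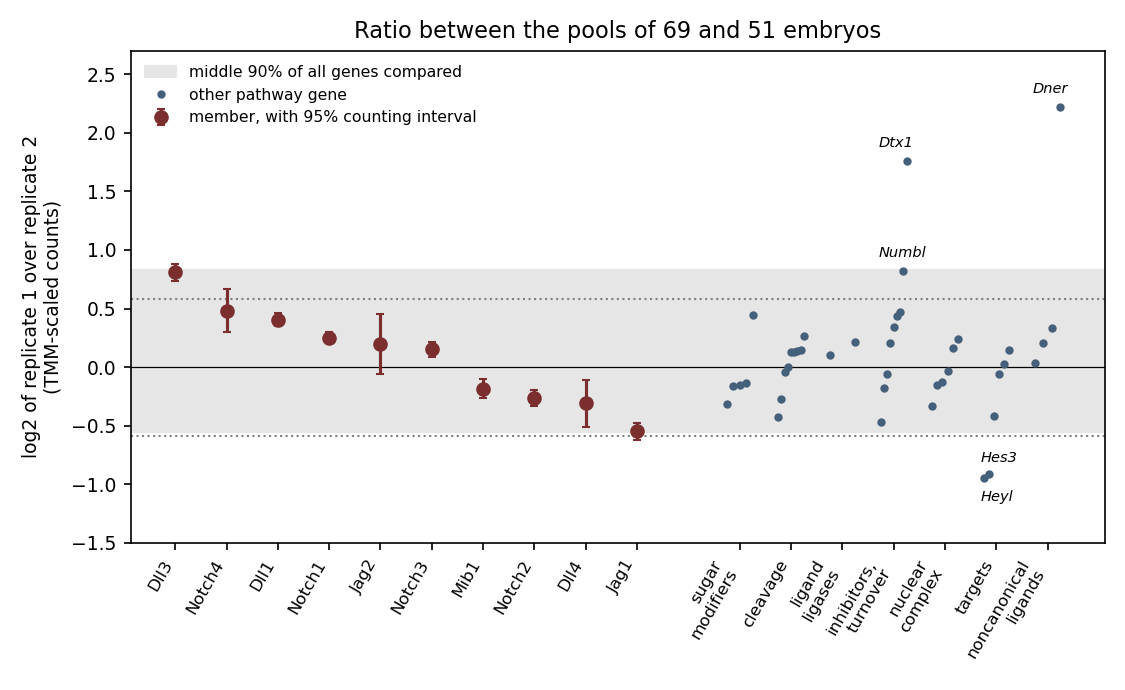
Log2 of replicate 1 over replicate 2 for each member, with its 95% counting interval, and for the other pathway genes compared, by role; grey is the middle 90% of all genes, and dotted lines are at 1.5-fold. Dll3 (0.81) is the one member past a dotted line and still lies in the grey band, and spike-in scaling would lower every point by about 0.80.

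By TMM scaling, markers of neurons lay on the same side as Dll3 and Dll1. Of 8 postmitotic neuron markers 7 were over 1.5-fold higher in replicate 1, against 9.07% of all genes. All 8 were on that side (median 1.09), led in level by Tubb3, a neuronal tubulin, at 727 and 473 TPM in replicates 1 and 2. Dcx, Stmn2, Elavl3, Map2, Ina and Syt1 were the other 6 past that fold, and Nefl was at 0.52. By spike-in scaling 2 of the 8, Elavl3 and Ina, were past that fold, against 1.49% of all genes, and 6 were on that side. The summed level of the 8 was 1720 TPM in replicate 1 and 1014 in replicate 2. Among proneural factors, Neurog2 (39.95 and 16.8 TPM) was higher in replicate 1, while Neurod1 (16.7 and 44.6 TPM) and Neurod4 (11.2 and 19.5 TPM), which act later in neuron formation, were higher in replicate 2. Of 7 progenitor markers 1 was that far apart, Fabp7 (685 and 437 TPM). By TMM neurons were not alone on the side of replicate 1. Among the markers compared, 5 of 7 progenitor, 6 of 7 mural cell, 4 of 4 macrophage and 5 of 6 mesenchyme markers also had ratios above 0. In the endothelial, red blood cell and surface ectoderm lists 4 of 8, 2 of 4 and 0 of 3 did. The median of all genes compared was -0.01 by TMM, so ratios on either side of 0 were common. By spike-in scaling, where that median was -0.82, the counts above 0 were 0 of 7, 1 of 7, 0 of 4 and 1 of 6 in the same order. For the endothelial, red blood cell and surface ectoderm lists they were 0 of 8, 0 of 4 and 0 of 3. The part of these cell types in the ratios of Dll1 and Dll3 was not tested.

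Markers of vessels give the setting of Notch4, Dll4 and Notch3. None of the 8 endothelial markers was 1.5-fold apart by TMM, against 13.3% of all genes. By spike-in scaling 7 were higher in replicate 2 by that fold, against 75.5% of all genes. The 8 ranged from Tek at 7.23 ± 0.283 TPM to Egfl7 at 73.9 ± 15.8 TPM, and summed to 173.7 TPM in replicate 1 and 199.9 in replicate 2. Of 8 mural cell markers 4 were detected, and the 8 summed to 62.5 and 52.4 TPM. Acta2 was the highest (24.8 ± 4.34 TPM), and Rgs5, the lowest, was at 1.14 TPM in replicate 1 and 0.38 in replicate 2, the one past 1.5-fold of the 7 mural markers compared. Kcnj8, at 2.25 TPM in replicate 1 and 0.65 in replicate 2, was left out of the comparison by the filter on low counts. Of 4 surface ectoderm markers 3 were detected, with sums of 84.1 and 129.2 TPM, and Epcam was at 13.2 TPM in replicate 1 and 31.7 in replicate 2. Krt5, the fourth, lay the other way, at 1.77 TPM in replicate 1 and 0.14 in replicate 2, and was left out of the comparison by the same filter. Of 6 mesenchyme, 4 macrophage and 4 red blood cell markers all were detected, with sums of 567.3 and 491.9, 46.7 and 32.0, and 14348 and 16221 TPM. Col1a1 (154 and 82.8 TPM), a mesenchymal collagen, and C1qb (30.7 and 19.8 TPM), a macrophage complement gene, were the 2 of these past 1.5-fold. The part of these cells in the levels of Notch4, Dll4, Notch3 and Jag1 was not tested.

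Of 44 other genes of the pathway, 42 were detected in both libraries, and 41 entered the comparison of the pools. Past 1.5-fold, 3 of the 41 were higher in replicate 1 and 2 in replicate 2, against 9.07% and 4.28% of all genes. By spike-in scaling these counts were 2 and 31, against 1.49% and 75.5% of all genes. The median log2 ratio of the 41 was 0.04 by TMM.

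The machinery that modifies and cuts the receptor was present throughout. All 5 sugar-modifying enzymes were detected, from Pofut1 (4.41 ± 0.0424 TPM), which adds the O-fucose that fringe enzymes extend, to the fringe gene Mfng (61.9 ± 6.68 TPM). All 10 genes of cleavage were detected, from the gamma-secretase subunit Aph1c (1.08 TPM in each library) to Psenen (114 ± 3.37 TPM), another subunit of that enzyme. Aph1c was too low to be compared between the pools, and none of the others was 1.5-fold apart by TMM. Of 4 ligand ligases 3 were detected. Mib1 itself was the highest, and Neurl1b was at 0.120 TPM in replicate 1 and 0.0700 in replicate 2.

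By TMM, 2 of the 9 inhibitors and turnover factors were higher in replicate 1 by 1.5-fold or more, against 9.07% of all genes. All 9 were detected, and Dtx3, a Deltex ligase, was the highest at 107 ± 19.7 TPM. Dtx1, a Deltex ligase and Notch target, was the lowest at 4.43 TPM in replicate 1 and 1.30 in replicate 2, a log2 ratio of 1.76. Numbl, a Numb relative that opposes Notch and is active in neurons too, was at 42.4 TPM in replicate 1 and 24.3 in replicate 2 (0.82). Under spike-in scaling Dtx1 stood at 0.96 and Numbl at 0.02. All 6 genes of the nuclear complex were detected, from the co-activator Maml1 (4.39 ± 0.849 TPM) to Rbpj (31.5 ± 3.30 TPM), and none was 1.5-fold apart by TMM.

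Of the 6 target genes 4 had ratios below 0 by TMM, and all 6 did by spike-in scaling. Their median was -0.24 by TMM, against -0.01 for all genes compared, and -1.04 by spike-in scaling, against -0.82. Ratios below 0 were thus common among all genes too, above all by spike-in scaling, and these counts do not set the targets apart. Hes5, the main target in neural progenitors, was at 480.0 TPM in replicate 1 and 450.2 in replicate 2, with a log2 ratio of 0.15, and Hey2 was the lowest of the 6 at 3.47 and 4.85 TPM (-0.41). Heyl was at 9.16 TPM in replicate 1 and 18.4 in replicate 2 (-0.95), and Hes3, which is active early in the neural tube and at the isthmus, was at 6.48 and 12.8 TPM (-0.91). Among 5 genes of noncanonical ligands, Dlk1 was the highest (60.4 ± 8.35 TPM) and Cntn6 the lowest (0.440 ± 0.170 TPM). Dner, a Delta-like protein of neurons, was at 29.8 TPM in replicate 1 and 6.85 in replicate 2. Its log2 ratio of 2.22 was the highest of all genes named here that entered the comparison, and it stood at 1.42 under spike-in scaling.

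**Figure D5:**
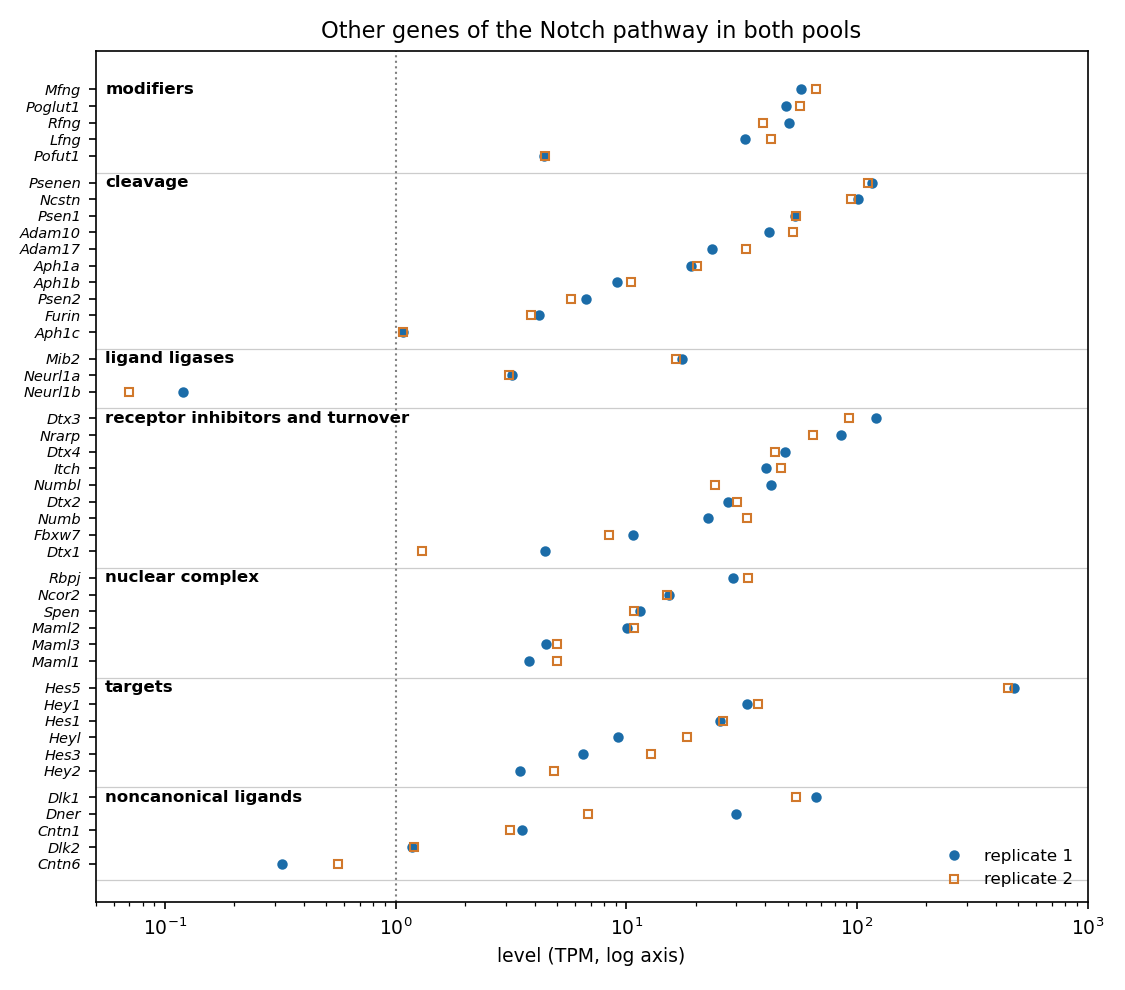
TPM (log axis) of 44 other pathway genes in replicate 1 (filled) and replicate 2 (open), grouped by role and ordered by mean level; the dotted line is at 1 TPM. Neurl1b and Cntn6 are left of the line in both pools, and Dner and Dtx1 show the widest gaps.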

How the data were processed

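Total RNA from 2 pools of hindbrain was sequenced, and 1 gene table and 1 transcript table per library were used. The deposited notes name mm10 as the assembly and M4 as the annotation, with aligner and quantifier not given in the sources used here. Per the file headers each table holds an expected count, in which reads that fit several features are divided between them, and TPM and a posterior mean TPM. FPKM and a percent per isoform are given per the file headers too and were not used; percent shares in the text were recomputed from TPM. Deposited bounds of TPM (a signal column in the table of units, per the file headers) have no stated level and are not printed. TPM covers all rows, spike-ins included (13.0% and 7.82% of TPM). The effective length is the length minus 99 bases, so short transcripts get high TPM from few counts.

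Gene names come from GENCODE M21 by identifier without version; 42462 of 43346 genes matched. For the ratios, expected counts were rounded and scaled with TMM in edgeR 4.0.16 (R 4.3.3; prior count 2), for genes with a CPM of at least 1 in both libraries. The ratio step was checked on simulated counts. Count intervals are exact at 95%. Promoter windows rest on RefSeq starts, and the set of windows used here held none for Mib1. Members and lists were chosen with earlier results of these data known. Named genes are all members, the highest and lowest of each list, list members 1.5-fold apart and the 2 leading transcripts; 2 libraries give no pattern for a search of like genes. Calculations used Python 3.11.15 with scipy 1.17.1, and DESeq2 1.42.0 for size factors. One item that this rule would name is not reported here.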

Additional observations from a re-analysis of the deposited data

How the results depend on the processing

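All 10 genes stayed above the limit at 0.5 and 2 TPM, by posterior mean TPM and by the longest coding transcript; of the 44 other genes 42, 39 and 42 did under the first 3. The receptor sum (77.4 TPM) was 86.5 TPM when scaled over annotated genes, 80.8 TPM by posterior means, and 68.2 and 68.3 TPM from the longest or all coding transcripts, the last 2 chosen after seeing the data. With either library alone it was 75.1 to 79.6 TPM, the ligand sum 132.3 to 166.7 TPM, and the log2 of ligands over receptors 0.82 to 1.07. That log2 value was 0.37 per length of the leading transcript, where Notch4 counts are divided by the short length of Notch4-210, and reversed to -0.43 in counts, which are not per length.

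Spike-in scaling moved the median ratio of the 10 genes to -0.63 and put 6 of them at least 1.5-fold apart, against 77.0% of all genes. Deposited TPM put 2 apart, Dll3 and Jag1, against 14.3% of all genes, and a fold of 2 put 0 of 10 apart, against 4.34%. Total count scaling, DESeq2 size factors and other prior counts changed no sign. Of all genes 13.3% were 1.5-fold apart in either direction, 30.4% with no filter on low counts and 8.95% at a CPM of at least 5. No paired analysis was possible because there is 1 group.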
